A study of Mus musculus with 24 samples.

Results

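The progestin and adipoQ receptor (PAQR) family comprises membrane proteins with 7 passes through the lipid bilayer, and 6 of its genes are described here in the livers of mice fed 3 types of fat. The genes, chosen by their symbol, are Paqr7, Paqr9, Paqr3, Paqr4, Adipor1 and Adipor2. Of these 6 genes, 5 are among the 18820 genes with a probe set of their own on the array and were measured. Paqr4 is represented only by 2 probe sets that also match Pkmyt1, a kinase of the cell cycle, so no value was assigned to it, and those probe sets averaged 3.32 and 3.27 on the log2 scale over the 24 livers. Paqr7 was included because of its own values in these livers, which are therefore given as a description without a test.

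The study asked how industrial trans fat acts on the liver compared with other fats. Male mice on a pure C57BL/6J background, 4 to 6 months old, received for 7 weeks a modified TestDiet 58V8 with 45% of its energy as fat. There were 8 mice per diet and no low-fat group. The diets differed in their fat, which was soy oil after partial hydrogenation (Trans), a mix of canola and palm olein oils (Cis) or cocoa butter (Saturated). Total RNA of each liver was hybridized to a separate array, and the deposited values are log2 signals after the robust multi-array average (RMA), so a difference of 1 is a doubling of signal.

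PAQR proteins fall into several branches. AdipoR1 and AdipoR2 bind adiponectin, a hormone of fat cells, and are known in liver for coupling it to AMP-activated kinase and to PPARα, the nuclear receptor that drives fatty acid oxidation. They have ceramidase activity, and AdipoR2 in mammals and its relative PAQR-2 in Caenorhabditis elegans keep membranes fluid when saturated fatty acids are abundant. Paqr7 encodes membrane progestin receptor alpha, which responds to progesterone at the cell surface in fish and mammalian cells. PAQR3 resides in the Golgi, where it anchors the complex of SCAP and SREBP, the sensor and the transcription factor of cholesterol synthesis. PAQR9 lies in the endoplasmic reticulum and has been linked in mice to the stability of the PPARα protein.

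In the RefSeq annotation of GRCm38.p6, Paqr7 lies on chromosome 4 (134496761 to 134510237), Paqr9 on chromosome 9 (95559634 to 95568022) and Paqr3 on chromosome 5 (97081364 to 97111749). Adipor1 lies on chromosome 1 (134415378 to 134433351), Adipor2 on chromosome 6 (119353150 to 119417699) and Paqr4 on chromosome 17 (23736186 to 23740899). Paqr7 has 2 annotated starts, and the sequence around them is shown because Paqr7 is the gene whose level differed most between the diets among the 5. Both stretches are on the forward strand of GRCm38.p6 and come from RefSeq. The first is the 250 bases before the first start, and the second is a 30-base stretch between the starts, 79 to 108 bases after the first, that holds, in capitals, the reverse-strand match to TCACNCCAC, the letters of a sterol regulatory element.
Paqr7 upstream, chr4:134496511-134496760: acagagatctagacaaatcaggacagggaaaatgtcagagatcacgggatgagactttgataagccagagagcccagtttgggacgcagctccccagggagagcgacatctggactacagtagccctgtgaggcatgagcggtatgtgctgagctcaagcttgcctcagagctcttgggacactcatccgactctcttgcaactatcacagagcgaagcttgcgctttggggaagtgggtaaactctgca
Paqr7 between the starts, chr4:134496840-134496869: gggatgcgtcGTGGAGTGAcccctcctgca
The match begins 191 bases before the second start, which is at position 134497041. Windows of 250 bases before to 50 bases after a start were searched on both strands for 12 motifs, and 5 of the 6 genes had such a window, Paqr9 being the exception. The only window of Adipor2, a reverse-strand gene, runs from 119388685 to 119388984 and lies well inside the gene, which extends to 119417699. The only window of Paqr4 (23740281 to 23740580) also lies inside its gene. The sequence before the outer start of these 2 genes was thus not searched. The sterol element letters occur in 1.24% of the 32851 windows, and among the windows of these 5 genes in Paqr7 alone. The GC box GGGCGG, held by 35.7% of windows, was found in Paqr7, Paqr3, Paqr4 and Adipor1. The CCAAT box CCAAT (37.4%) was found in Paqr4 and Adipor1, and the cyclic AMP response element TGACGTCA (1.79%) in Paqr3. No window of the 5 genes held the PPAR direct repeat, the LXR direct repeat, the NRF1 element, the TATA box TATAAA, the E box CACGTG, the HNF4 element CAAAGTCCA, the ETS element CCGGAAGT or the steroid receptor palindrome ACANNNTGT. A match is a description of the letters and no evidence of a bound site.

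The arrays were similar to each other, with medians of 2.94 to 3.06, and the lowest median correlation with the other arrays was 0.975, in Trans replicate 4. All 8 hepatocyte markers measured had a mean signal over 20. Saturated replicate 2 stood apart, with the lowest mean of the cholesterol synthesis genes of its diet at 7.46, against 8.40 in the next liver. The differences of Paqr7 and the calls of the other measured and related genes are therefore also given without it. List medians and the values of single related genes include it. Because whole liver was measured, fewer cells of a type and less RNA per cell cannot be told apart.

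Paqr7 was higher in livers of mice fed either unsaturated fat than in livers of mice fed the Saturated diet. On the log2 scale, its signal in mice fed the Trans diet had a lowest value of 6.32, a median of 6.72 and a highest value of 7.16. In mice fed the Cis diet these values were 6.57, 6.67 and 6.98, and in mice fed the Saturated diet 5.97, 6.23 and 6.52. All 8 Cis livers lay above the highest Saturated liver, as did 6 of the 8 Trans livers, while Trans replicates 1 and 3 fell within the Saturated range. Over all probe sets, 0.0141% had 8 Cis livers above every Saturated liver. As linear signal, Paqr7 averaged 108 ± 19.0 in Trans, 105 ± 9.64 in Cis and 75.1 ± 11.2 in Saturated livers (SD, n = 8 each).

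The difference in Paqr7 was 0.51 (SE 0.10) for Trans against Saturated, or 1.43-fold, and 0.49 (SE 0.10) for Cis against Saturated, or 1.40-fold. Both comparisons share the Saturated livers. Trans and Cis livers differed by 0.03 (SE 0.10), with 4 of 8 Trans livers above the Cis mean. The highest Saturated liver was replicate 2, and without it the differences were 0.56 for Trans and 0.53 for Cis, both with SE 0.10. These are the values that selected the gene, so they are no support for a difference.

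**Figure D1:**
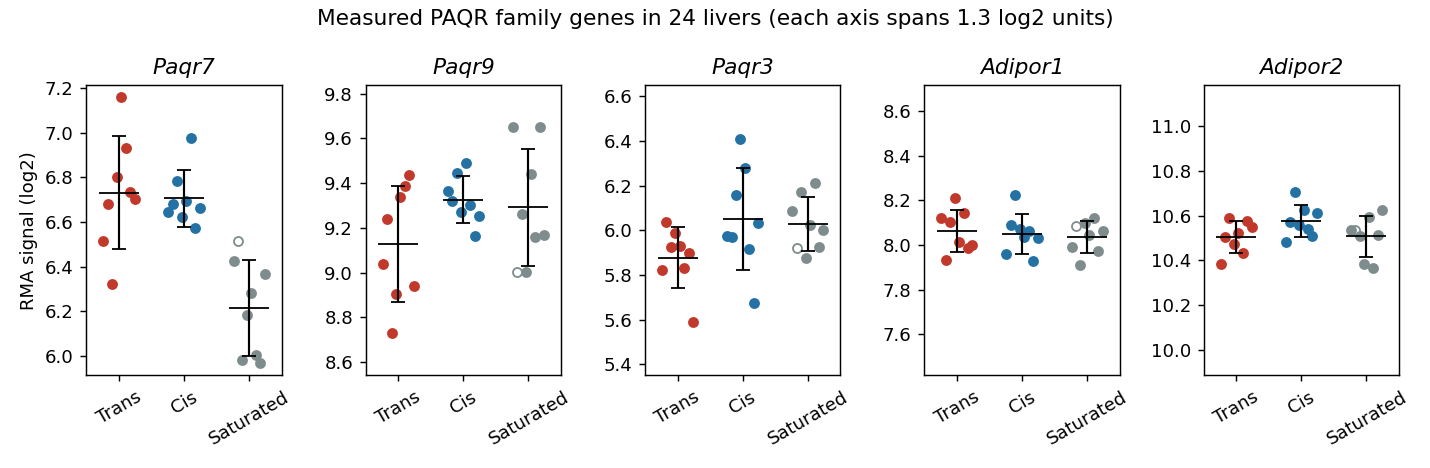
Signal (log2) of the 5 measured PAQR genes in the 24 livers, 8 per diet, with each point a liver, horizontal lines the mean and bars the SD; each axis spans the same number of log2 units. The open circle is Saturated replicate 2. Paqr7 has all Cis livers above the Saturated livers, whereas the points of Adipor1 and Adipor2 lie close together in every diet.

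Marker genes of other cells were examined beside Paqr7. All 5 adipocyte markers measured had a higher mean in Trans than in Saturated livers, and their summed linear signal ran from 79.3 to 236 in Trans, 58.8 to 222 in Cis and 28.1 to 94.6 in Saturated livers. That sum was mostly Cidec, a lipid droplet protein that fatty hepatocytes also express. The markers Adipoq, Plin1, Lep and Retn had mean signals under 20. Of the 6 Kupffer cell markers, 5 had a lower mean in Trans and 6 in Cis than in Saturated livers, with sums of 629 to 1329 in Trans, 730 to 1294 in Cis and 760 to 1468 in Saturated livers. Smooth muscle markers were higher in the mean in Trans than in Saturated livers for 6 of 6 genes, with a median difference of 0.39 and sums of 61.5 to 210 in Trans, 51.6 to 92.2 in Cis and 55.0 to 81.3 in Saturated livers. Of these markers only Acta2, an actin of contractile cells, had a mean signal over 20, while Myh11, Tagln, Cnn1, Des and Actg2 were under it. For Cis against Saturated their median difference was 0.04. Of the 7 stellate cell markers, 4 had a higher mean in Trans than in Saturated livers, among them the collagen genes Col1a1 (0.83, SE 0.25) and Col3a1 (0.63, SE 0.21). The other 3, Lrat, Reln and Dcn, had a lower mean, with Lrat at 7.09 in Trans and 7.34 in Saturated livers. The sums of the stellate cell markers were 1117 to 1495 in Trans, 1068 to 1339 in Cis and 1068 to 1436 in Saturated livers. Higher in the mean in Trans than in Saturated livers were 5 of 5 recruited macrophage, 5 of 6 endothelial, 2 of 5 cholangiocyte and 0 of 6 T, B and NK cell markers. For Cis against Saturated these were 2 of 5, 0 of 6, 0 of 5 and 1 of 6. Mean signals over 20 were found for 1 recruited macrophage, 6 endothelial, 1 cholangiocyte and 0 T, B and NK cell markers. None of these marker genes was called in any comparison, and their part in the level of Paqr7 was not tested.

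The other 4 measured genes did not differ detectably between diets. Of these 4 genes, 0 were called for Trans against Saturated, where 0.00844% of all probe sets were called, 0 for Trans against Cis (0.00281%) and 0 for Cis against Saturated (0%). At an unadjusted p under 0.05 the number was also 0 of 4 in each comparison, against 7.32%, 6.16% and 6.57% of all probe sets. By Tukey's post hoc test, the test of the methods, none of the 4 passed either. Without Saturated replicate 2, the 4 genes were again not called in any comparison, and the largest differences for Trans against Saturated among them were -0.21 for Paqr9 (adjusted p = 0.692 in limma) and -0.17 for Paqr3 (adjusted p = 0.697). The number of arrays limits the size of difference that could have been seen.

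Paqr9 was the most variable of these 4 genes within diets. Its log2 signal had a lowest value of 8.73, a median of 9.14 and a highest value of 9.44 in Trans livers. The corresponding values were 9.16, 9.31 and 9.49 in Cis livers and 9.003, 9.21 and 9.65 in Saturated livers. Below every Cis liver lay 4 of 8 Trans livers, but the upper ends of the diets overlapped. Saturated replicates 2, 4 and 6 also lay below every Cis liver, and the Cis livers spread least (SD 0.106). The difference was -0.17 (95% interval -0.39 to 0.06, adjusted p = 0.799 in limma) for Trans against Saturated. For Trans against Cis it was -0.20 (-0.43 to 0.03, adjusted p = 0.812) and for Cis against Saturated 0.03 (-0.19 to 0.26, adjusted p = 0.974). The intervals do not exclude a level in Trans livers as low as 0.763 times that in Saturated livers.

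Paqr3, the Golgi anchor of SCAP and SREBP, had in Trans livers a lowest log2 signal of 5.59, a median of 5.91 and a highest value of 6.04. In Cis livers these were 5.67, 6.00 and 6.41, and in Saturated livers 5.87, 6.01 and 6.21. Only 1 of 8 Trans livers exceeded the Saturated mean, and 0 of 8 exceeded the Cis mean, yet the ranges overlapped in part. The difference was -0.15 (95% interval -0.33 to 0.03, adjusted p = 0.741 in limma) for Trans against Saturated and -0.17 (-0.35 to 0.0022, adjusted p = 0.802) for Trans against Cis. For Cis against Saturated it was 0.02 (-0.15 to 0.20, adjusted p = 0.977).

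The adiponectin receptors were the most even of the 5 genes. Adipor1 ran from 7.93 to 8.21 (median 8.06) in Trans, from 7.93 to 8.22 (median 8.05) in Cis and from 7.91 to 8.12 (median 8.05) in Saturated livers. Adipor2 ran from 10.38 to 10.59 (median 10.51) in Trans, from 10.48 to 10.71 (median 10.56) in Cis and from 10.36 to 10.63 (median 10.52) in Saturated livers. For Adipor1 the 3 diets covered nearly the same range. For Adipor2 the ranges overlapped, with both ends of the Cis range above those of the other diets.

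The difference for Adipor1 was 0.03 (95% interval -0.08 to 0.13, adjusted p = 0.953 in limma) for Trans against Saturated, 0.01 (-0.09 to 0.12, adjusted p = 0.984) for Trans against Cis and 0.02 (-0.09 to 0.12, adjusted p = 0.976) for Cis against Saturated. For Adipor2 it was -0.0041 (-0.11 to 0.10, adjusted p = 0.994) for Trans against Saturated, -0.07 (-0.17 to 0.03, adjusted p = 0.856) for Trans against Cis and 0.07 (-0.03 to 0.17, adjusted p = 0.863) for Cis against Saturated. Both receptors varied little from liver to liver. The residual SD within diets was 0.0786 for Adipor2 and 0.0853 for Adipor1, smaller than in all but 1.80% and 2.87% of the 8298 genes with a mean signal over 20, whose median was 0.174. The residual SD was 0.169 for Paqr3, 0.204 for Paqr7 and 0.222 for Paqr9. The intervals of Adipor1 and Adipor2 therefore reach no further than 0.887 to 1.12 times, a narrower span than that of Paqr9.

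**Figure D2:**
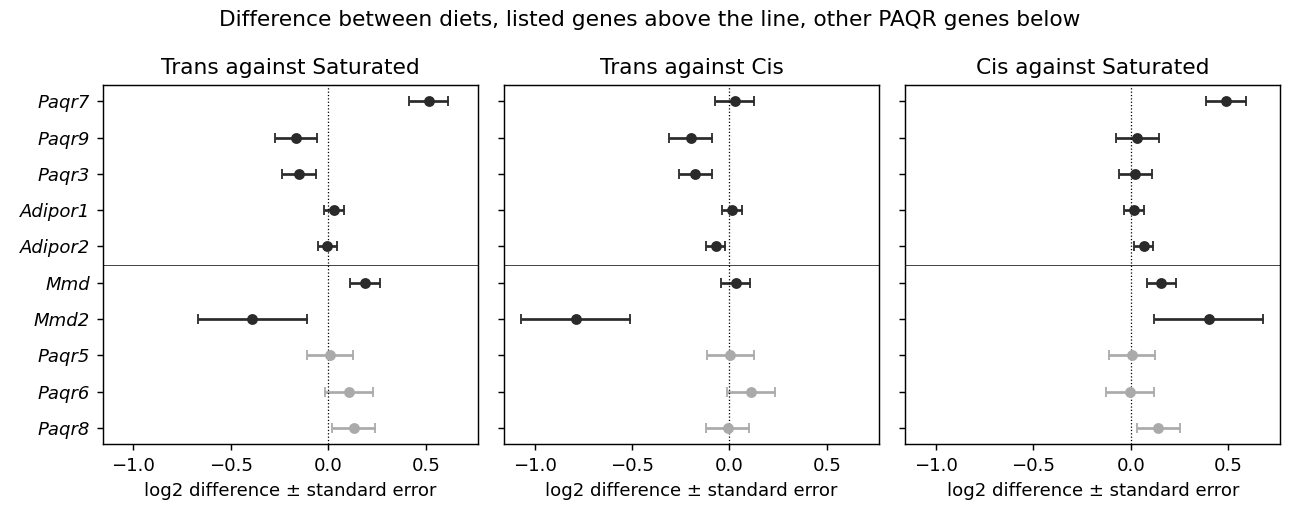
Difference in log2 signal between diets with its standard error, for the 5 measured genes and, under the line, the other 5 PAQR genes; grey marks genes with a mean signal under 20. Paqr7 lies at 0.51 and 0.49 against Saturated, and Mmd2 at -0.79 for Trans against Cis, while the other black points lie between -0.39 and 0.40.

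The other 5 PAQR genes on the array were Paqr5, Paqr6, Paqr8, Mmd and Mmd2. Paqr5, Paqr6 and Paqr8, the further membrane progestin receptors, had mean log2 signals of 2.02, 2.00 and 2.39, under the 4.32 that corresponds to a signal of 20. Mmd, named for its appearance when monocytes differentiate into macrophages, was 0.19 (SE 0.07) higher in the mean in Trans than in Saturated livers, all 8 Trans values exceeding the Saturated mean, and 0.16 (SE 0.07) higher in the mean in Cis livers. Neither difference was called (adjusted p = 0.605 and 0.758 in limma). Mmd2 had a mean of 4.95 ± 0.575 in Trans, 5.74 ± 0.622 in Cis and 5.34 ± 0.578 in Saturated livers (SD, n = 8 each). All 8 Trans livers were below the Cis mean, and the difference of -0.79 (SE 0.28) was not called (adjusted p = 0.723 in limma).

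Genes that work with the receptors were examined in 9 lists with 112 genes, of which 103 were measured. Over these 103 genes, 0 were called in each of the 3 comparisons. At an unadjusted p under 0.05 there were 34 for Trans against Saturated, 8 for Trans against Cis and 29 for Cis against Saturated, where 7.32%, 6.16% and 6.57% of all probe sets passed. The 8 genes for Trans against Cis are thus close to the share over the array. Most of those against Saturated were genes of cholesterol synthesis and PPARα targets. Without Saturated replicate 2, 6 of the 103 were called for Trans against Saturated, all of them lower and all enzymes of cholesterol synthesis, where 0.0281% of all probe sets were called lower.

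Of the adiponectin ligands and signalling genes, 17 of 18 were measured, with 6 higher and 11 lower in the mean for Trans against Saturated and a median of -0.03, against a median of -0.00014 over all probe sets. Adipoq, which encodes adiponectin and is made by fat cells, had a mean log2 signal of 2.23 in these livers. For Trans against Saturated the gene with the smallest p was Cdh13, T-cadherin, which binds adiponectin without 7 membrane passes. Its log2 signal averaged 4.40 ± 0.336 in Trans, 4.31 ± 0.227 in Cis and 3.92 ± 0.164 in Saturated livers (SD, n = 8 each), and its mean over all livers, 4.21, was under the 4.32 of a signal of 20. The difference was 0.48 (SE 0.12, adjusted p = 0.281 in limma) for Trans and 0.39 (SE 0.12, adjusted p = 0.599) for Cis against Saturated, neither of them called. Ppargc1a, which had the smallest p of the list for Cis against Saturated and encodes a coactivator of PPARα and a target of AMP-activated kinase, differed by -0.33 (SE 0.14, adjusted p = 0.62) for Trans against Saturated and by -0.51 (SE 0.14, adjusted p = 0.502) for Cis against Saturated. Ppara itself differed by 0.18 (SE 0.09, adjusted p = 0.698) for Trans against Saturated.

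The partners of PAQR3 were represented by 8 measured genes, of which 0 were called in any comparison. Scap, the sterol sensor that PAQR3 anchors in the Golgi, had a lowest log2 signal of 7.99, a median of 8.12 and a highest value of 8.43 in Trans livers. In Cis livers these were 8.07, 8.15 and 8.38, and in Saturated livers 8.25, 8.48 and 8.58. The Trans and Cis livers thus all lay below the Saturated mean. The difference was -0.28 (SE 0.07, adjusted p = 0.281 in limma) for Trans and -0.26 (SE 0.07, adjusted p = 0.539) for Cis against Saturated. Srebf2 differed by -0.26 (SE 0.11, adjusted p = 0.625) for Trans against Saturated, and Srebf1 by 0.53 (SE 0.21, adjusted p = 0.684) for Cis against Saturated. For PAQR9, the partners Ppara, Bag6 and Huwe1 had a median difference of 0.10 for Trans against Saturated, and 0 of 3 were called or passed an unadjusted p under 0.05.

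The 17 measured genes of cholesterol synthesis were all lower in the mean in Trans than in Saturated livers, with a median difference of -0.73. For Cis against Saturated the median was -0.57, also with 17 of 17 lower in the mean. For Trans against Saturated, 17 of 17 passed an unadjusted p under 0.05 in the lower direction, against 3.54% of all probe sets, and 0 were called. The 15 measured PPARα targets had a median difference of 0.18 for Trans against Saturated, with 14 higher in the mean, of which 9 passed an unadjusted p under 0.05 (3.79% of all probe sets). Vnn1, a pantetheinase, differed by 0.61 (SE 0.15, adjusted p = 0.254 in limma) and Acaa1b, a peroxisomal thiolase, by 0.31 (SE 0.07, adjusted p = 0.219).

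The remaining lists held no called gene in any comparison. For Trans against Saturated the median was 0.02 over 6 genes of the progesterone receptor and its membrane-associated relatives, 0.03 over 10 genes of membrane fluidity and acyl chains, and 0.01 over 23 genes of ceramide turnover. For Trans against Cis these medians were -0.00093, 0.13 and 0.0029, with 8 of the 10 fluidity genes higher in the mean, against -0.0031 over all probe sets. Pgr, the nuclear progesterone receptor, had a mean log2 signal of 1.78, whereas Pgrmc1, a haem-binding membrane protein, had 10.61. For Trans against Saturated, Pgrmc1 differed by 0.08 (SE 0.06, adjusted p = 0.822 in limma). Among the fluidity genes, Scd2, a desaturase, was 0.61 (SE 0.21, adjusted p = 0.723) higher in the mean in Trans than in Cis livers, and Tlcd2, whose product limits membrane fluidity, differed by -0.28 (SE 0.11, adjusted p = 0.755). Among the ceramide genes, Sptlc2, a subunit of the enzyme that starts ceramide synthesis, was 0.21 (SE 0.07, adjusted p = 0.708) higher in the mean in Trans than in Cis livers, with 8 of 8 Trans livers above the Cis mean.

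To see whether the receptors vary together from liver to liver, each gene was centred on its diet mean and correlated over the 24 livers. None of the 10 pairs among the 5 genes passed a permutation test after Benjamini-Hochberg adjustment, and the coefficients lay between -0.29 for Paqr9 with Adipor1 and 0.29 for Paqr7 with Paqr9. Adipor1 and Adipor2 had r = -0.01 (Spearman's rho = -0.12, adjusted p = 0.948 and 0.725, permutation tests, two-sided). Within diets, r for this pair was -0.49 in Trans, 0.84 in Cis and -0.35 in Saturated livers (n = 8 each), values that were not tested. Each of the 5 genes was then set against the mean of the PPARα targets and the mean of the cholesterol synthesis genes, which gave 10 relations. The log2 values were averaged without scaling. Genes that varied widely between livers, such as Pdk4 (SD 1.15 in Trans livers), therefore weighed more in these means.

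Paqr9 correlated with the PPARα targets, and this was the 1 relation of the 10 that passed. Pearson's r was 0.68 (permutation p = 0.00033, adjusted p = 0.0033) and Spearman's rho 0.73 (permutation p = 0.00014, adjusted p = 0.0014). Without the 2 livers farthest from the median in Paqr9, r was 0.65 (adjusted p = 0.013, permutation test). Within diets, r was 0.78 in Trans, 0.07 in Cis and 0.88 in Saturated livers (n = 8 each), so the relation was not seen among the Cis livers, in which Paqr9 also varied least, with an SD of 0.106, against 0.261 in Trans and 0.262 in Saturated livers. Whether the slopes differ between diets was not tested. Without subtracting the diet means, r was 0.44 (adjusted p = 0.106, permutation test), so the relation no longer passed. The 1 relation that passed on those values was instead Paqr7 with cholesterol synthesis (r = -0.63), which includes the diet differences that selected Paqr7 and is no support for a relation. For Paqr7 with the PPARα targets, r was 0.39 (rho = 0.27, adjusted p = 0.432 and 0.792, permutation tests), and with cholesterol synthesis -0.31 (rho = -0.24, adjusted p = 0.569 and 0.792). Within diets, r of Paqr7 with the PPARα targets was 0.47 in Trans, 0.62 in Cis and 0.18 in Saturated livers (n = 8 each). Whether Paqr9 and Paqr7 differ in this relation was not tested.

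**Figure D3:**
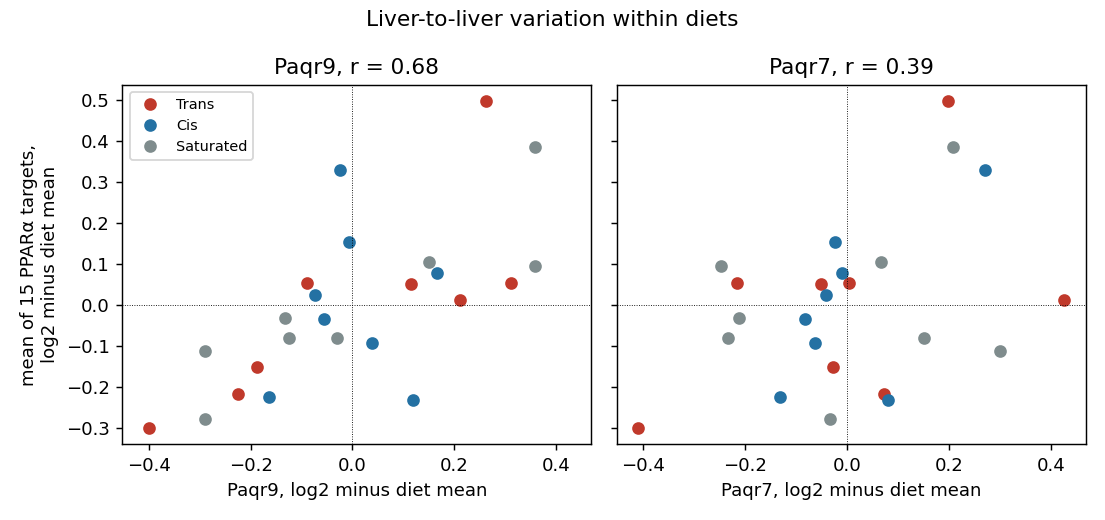
Log2 signal of Paqr9 (left) and Paqr7 (right) against the mean of 15 PPARα targets in the 24 livers, each value after subtracting the mean of its diet. The points of Paqr9 run from lower left to upper right (r = 0.68), except for the Cis livers, and those of Paqr7 are more scattered (r = 0.39).

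The coefficients of the single targets with the 2 genes are given as a description over the same 24 livers, without a test. Slc25a20, the mitochondrial carnitine carrier, correlated with Paqr9 at 0.74 and with Paqr7 at 0.47. Acot1, a cytosolic acyl-CoA thioesterase, had 0.73 and 0.13, Ehhadh of the peroxisomal oxidation pathway 0.71 and 0.28, and Pdk4, which restrains glucose oxidation, 0.65 and 0.05. Vnn1 had instead 0.47 with Paqr9 and 0.78 with Paqr7, and Acadm, a mitochondrial acyl-CoA dehydrogenase, 0.55 and 0.70. With Paqr9, 3 of the 15 targets had a negative coefficient, namely Cpt1a (-0.17), Cyp4a14 (-0.08) and Creb3l3 (-0.04). With Paqr7, 14 of the 15 had a positive one. The median over the 15 targets was 0.47 with Paqr9 and 0.41 with Paqr7. All 17 cholesterol synthesis genes had a negative coefficient with Paqr7, with a median of -0.29. Within diets, the mean of those 17 genes correlated with Paqr7 at -0.66 in Trans, 0.68 in Cis and -0.47 in Saturated livers (n = 8 each). The negative sign was thus not seen among the Cis livers.

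**Figure D4:**
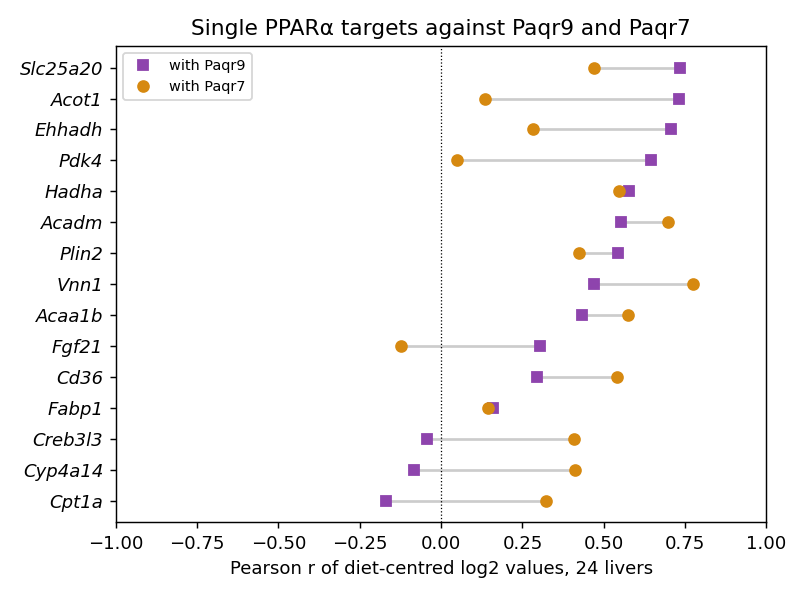
Pearson's r of each of 15 PPARα targets with Paqr9 (squares) and with Paqr7 (circles), over 24 livers after subtracting the diet means. Slc25a20, Acot1, Ehhadh and Pdk4 lie furthest right for Paqr9, at 0.65 to 0.74, and Vnn1 and Acadm for Paqr7, at 0.78 and 0.70.

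The genes most like each receptor in their variation within diets were sought among the other 8297 genes with a mean signal over 20, by Pearson's r over the 24 livers, which share array and preparation. For Paqr7 they were Abcc3 (0.79), an exporter of organic anions, Vnn1 (0.78), Vwa8 (0.77), Hsd17b4 (0.75), the peroxisomal bifunctional protein, and Slc25a10 (0.74), the mitochondrial dicarboxylate carrier. The 95th percentile of r over all these genes was 0.37 for Paqr7. For Paqr9 they were Crat (0.77), carnitine acetyltransferase, Rab21 (0.76), an endosomal GTPase, and Sowahb (0.75), with a 95th percentile of 0.44. For Paqr3 they were Edem1 (0.77), which takes part in the degradation of misfolded glycoproteins, Ranbp3 (0.76) and the chaperone Hsph1 (0.74). For Adipor1 they were Atp13a1, Nek9 and Tm9sf4, each with r = 0.73. For Adipor2 they were Pygl (0.85), liver glycogen phosphorylase, Mdh1 (0.74), cytosolic malate dehydrogenase, and Sertad2 (0.73).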

How the data were processed

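Per the labels and the methods, total RNA with an integrity number over 8.0 was labeled and put on Affymetrix Mouse Gene 1.1 ST arrays, 1 per liver. The authors processed the arrays by RMA, and the deposited values are log2 signals, 35556 probe sets by 24 livers, ranging from 0.309 to 13.46. Probe sets were named through the platform annotation, and each gene was given by its single-gene probe set of highest mean. Each of the 5 measured members has 1 such probe set.

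The 3 diets were fitted over all probe sets with limma 3.58.1 in R 4.3.3 (21 residual degrees of freedom), two-sided, with Benjamini-Hochberg adjustment over all probe sets of a comparison and calls under 0.05. The fit was tested on simulated data. Each liver is from a separate mouse. Correlations used 100000 permutations (SciPy 1.17.1). Paqr4 having no value, 10 pairs and 10 relations were computed where 15 and 12 were planned.

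The members and lists were chosen with earlier results of these data known. Genes named are the members, some of the genes with the smallest p of a related list in a comparison, and the genes most like each member. Other genes, such as the marker Adipoq, were named for their role, with their values known. The alternatives comprised a signal filter, trend and robust estimation, only the 2 diets compared, a replicate block, array weights, median centring, the Tukey post hoc test of the methods, and leaving out each liver. Some genes of the lists are not reported here.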

Additional observations from a re-analysis of the deposited data

Results flagged for a closer look

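Of 36 sets of 8 livers of a diet that were examined for a single liver far from the others, 3 had one, and chance gives about 1 in 20. The log2 signal of Paqr5 in Trans replicate 4 was 2.89, against 2.12 in the next highest liver, both under the signal of 20. The mean of the cholesterol synthesis genes in Saturated replicate 2 was 7.46, against 8.40 in the next lowest liver. The mean of the PPARα targets in Trans replicate 6 was 9.63, against 9.19 in the next highest liver.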

How the results depend on the processing

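Of the differences of Paqr9, Paqr3, Adipor1 and Adipor2 under all alternatives, none gained or lost a call, and the differences of these genes and Paqr7 that changed sign were close to 0. The difference of Adipor2 for Trans against Saturated was 0.00081 with array weights and 0.0065 with median centring, and that of Adipor1 for Trans against Cis was -0.0020 with array weights. Leaving out each liver gave ranges of -0.0094 to 0.0323 for Adipor1, -0.0267 to 0.0786 for Paqr3 and -0.0068 to 0.0858 for Paqr9 (Cis against Saturated), -0.0073 to 0.0380 for Adipor1 and -0.0348 to 0.0846 for Paqr7 (Trans against Cis), and -0.0247 to 0.0129 for Adipor2 (Trans against Saturated). Paqr7 kept 0.45 to 0.57 for Trans and 0.45 to 0.53 for Cis against Saturated.

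The count of probe sets called for Trans against Saturated was 0 with only the 2 diets compared, 1 with median centring, and 1 to 16 on leaving out a liver, the highest without Saturated replicate 2. For Trans against Cis it was 0 with the signal filter and with only the 2 diets compared, and 0 to 2 on leaving out a liver. For Cis against Saturated it was 0 to 3, again highest without Saturated replicate 2. Related genes called for Trans against Saturated were 0 to 6 on leaving out a liver. By the Tukey post hoc test of the methods at p under 0.05, 1180, 947 and 1011 probe sets passed for Trans against Saturated, Trans against Cis and Cis against Saturated, among them 22, 5 and 17 related genes, and 0 probe sets passed in each comparison after Benjamini-Hochberg adjustment. The cause of these shifts was not tested.

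Replicate numbers did not pair the livers, since correlations of same-numbered livers lay between -0.07 and 0.09 and 4 of 24 livers correlated best with their own number. With the replicate block, 5 probe sets were called for Trans against Saturated and 0 for Trans against Cis. The correlation of Paqr9 with the PPARα targets was 0.62 to 0.75 on leaving out a liver. Another probe set per gene could not be tried, since each measured member has 1.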
